A study of Mus musculus with 7 samples.

Results

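The genes of mitochondrial complex I (NADH:ubiquinone oxidoreductase) were examined in tibialis anterior (TA), a fast muscle at the front of the shin, and consisted of every gene in the expression table whose symbol begins with Nduf. There were 44 such genes among 12239. Of these, 35 encode subunits of the complex, 7 encode assembly factors (Ndufaf1 to Ndufaf7) and 2 carry an Nduf symbol without being counted as subunits here (Ndufa4 and Ndufa4l2). RNA sequencing had been run on TA muscle of male FVBN mice aged 5 to 6 months, either wild type (WT, 4 libraries) or homozygous for a disrupted Mybpc2 gene (C2-/-, 3 libraries). Mybpc2 encodes fMyBP-C, the fast skeletal form of myosin-binding protein C, and in the C2-/- allele a Neo cassette between LoxP sites stands in place of exons 2 to 22. It is a germline knockout, so the gene was disrupted in all cells and at all ages. The comparison asked how the fast muscle of young adult males differs when fMyBP-C is missing.

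Complex I is the entry point of electrons from NADH into the respiratory chain of the inner mitochondrial membrane. Its matrix arm oxidises NADH at a flavin and passes electrons along iron-sulphur clusters to ubiquinone, and its membrane arm pumps protons. The core subunits, shared with bacteria, carry out the catalysis, whereas the accessory subunits surround the core, and assembly factors help to build the complex without remaining in it. Core subunits of the membrane arm are encoded by mitochondrial DNA and were not analysed here, nor were Ndufs5 and Ndufb1.

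Levels are in log2 CPM, the log2 of the reads that fell on a gene out of every 1000000 after TMM scaling of the library. A log2 change is the C2-/- mean less the WT mean, and comes with its standard error (SE) and an adjusted p from limma (Benjamini-Hochberg, over all 12239 genes). Genes are said to pass the threshold, or to have risen or fallen, when that p was under 0.05 and the change was larger than 1.5-fold. The libraries held between 2613277 and 15464499 reads, and the 3 deepest were WT replicates 1 to 3. WT replicate 4, with 4683853 reads, lay within the depth range of the C2-/- libraries and stood apart from the other WT libraries in many of the genes below, so its values are given separately. Mybpc2 had 25665 to 110159 reads in WT and 3 to 8 reads in C2-/-, as the labels state. Muscle fibre markers were present in every library, but their summed level was 128856 to 157703 CPM in WT and 66652 to 83791 CPM in C2-/-, with 3 of 5 markers lower. The summed level of fibroblast markers was 356 to 545 CPM in WT and 1275 to 1439 CPM in C2-/-, with 4 of 5 higher. Myh2, the marker of type IIa fibres, stood at 330 to 777 CPM in WT replicates 1 to 3, 87.4 CPM in WT replicate 4 and 158 to 547 CPM in C2-/-. The part of these markers in the results below was not tested. In whole muscle, fewer cells of a type and less RNA per cell cannot be told apart.

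Complex I subunit genes moved in both directions in C2-/- muscle. Of the 35 subunit genes, 12 rose, 9 fell and 14 did not pass the threshold, against 45.2% of all genes tested that passed it, 20.2% as higher and 25.0% as lower. Over the 7816 genes with a mean log2 CPM of at least 3, which include the 35 subunit genes, 54.8% passed, 27.4% as higher and 27.3% as lower. The median log2 change was 0.19 for the subunit genes and -0.14 for all genes. With quantile normalization 9 subunit genes were higher and 12 lower, against 23.6% and 22.6% of all genes, and these medians were -0.03 and 0.05. There the calls of Ndufs1, Ndufa5 and Ndufb9 were lost, and Ndufs3 (-0.81), Ndufa10 and Ndufa13 were called lower. Changes ranged from -2.13 (Ndufv1) to 2.95 (Ndufc1), over genes whose products sit in the same complex. The libraries of the groups did not overlap for 22 of the 35 subunit genes, 12 of them higher and 10 lower in C2-/-, against 49.3% of all genes, 22.6% as higher and 26.7% as lower. Summed over the 35 genes, expression was 8355 ± 718 CPM in WT (SD, n = 4), 9168 CPM in WT replicate 4 and 9750 ± 490 CPM in C2-/- (SD, n = 3). The ratio of the C2-/- to the WT mean was 1.17, and 1.06 to WT replicate 4.

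**Figure D1:**
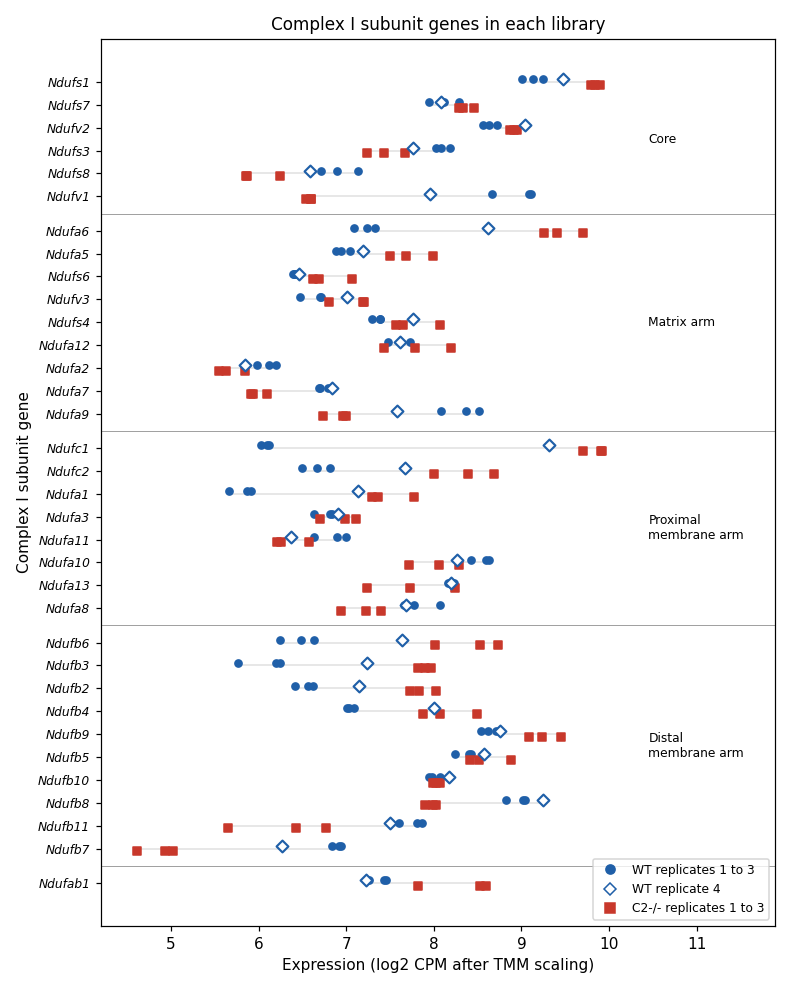
Expression of 34 of the 35 complex I subunit genes in each library, in log2 CPM on the horizontal axis, with genes grouped by their place in the complex and ordered by log2 change. Circles are WT replicates 1 to 3, open diamonds WT replicate 4 and squares the 3 C2-/- libraries, and the diamond lies next to the squares for genes such as Ndufc1 (9.31 against 9.70 to 9.92) and next to the circles for genes such as Ndufab1.

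Of the 7 assembly factors named Ndufaf, 4 were higher in C2-/- (Ndufaf1, Ndufaf2, Ndufaf4 and Ndufaf6), 0 lower and 3 not past the threshold, against 20.2% of all genes higher, and their median log2 change was 0.72. With the GC correction explained below, 2 of the 7 were higher and the median was 0.026, against 12.1% of all genes higher. Against WT replicate 4 alone, 2 were higher and 1 lower, where 8.73% and 8.25% of all genes were. Their summed level was 215 ± 53.8 CPM in WT (SD, n = 4), 294 CPM in WT replicate 4 and 346 ± 20.8 CPM in C2-/- (SD, n = 3).

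The calls moved with 2 further measures, of which the first was the GC content of the transcripts. The 12 subunit genes that rose had a median GC content of 48.0%, the 9 that fell one of 55.3%, and the 14 others one of 53.0%. Across the 35 subunit genes, Pearson's r between GC content and log2 change was -0.55 and Spearman's rho -0.53, as a description over genes of the same 7 libraries. Over the 12176 genes of the table with a GC content they were -0.66 and -0.68, so the relation was not particular to the subunit genes. Among the 12 subunit genes with a GC content under 50%, 8 rose and 1 fell, and among the 23 others 4 rose and 8 fell. The whole table was split in the same way, with 2144 of 5802 genes higher and 267 lower under 50% GC, and 322 of 6374 higher and 2774 lower at 50% or over. After a smooth curve of expression on GC content was removed from each library (the GC correction below), 15 subunit genes were higher and 4 lower, against 20.4% of all genes, 12.1% as higher and 8.30% as lower. Of the 21 subunit calls, 12 were also made with the GC correction in the same direction. The sign of the change turned in 11 of the 35 genes, to higher in 9 of them.

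**Figure D2:**
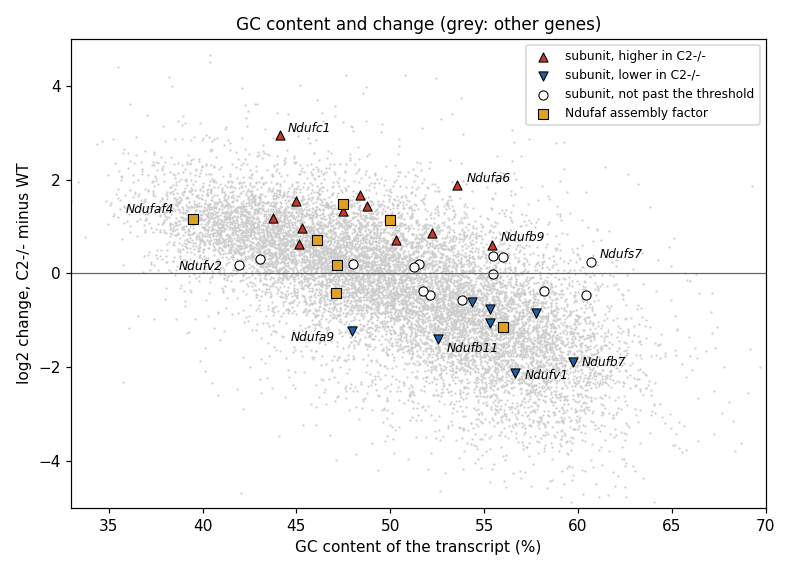
Log2 change of each gene (vertical axis, C2-/- minus WT) against the GC content of its transcript in percent (horizontal axis). Grey points are the other genes of the table, with 4 beyond 5 on the log2 scale not drawn, and symbols mark 34 subunit genes by call and the Ndufaf genes. Subunit genes that rose lie at a median of 48.0% GC and those that fell at 55.3%.

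The second was the single WT library with a depth like that of C2-/-. The mean of the C2-/- libraries was closer to WT replicate 4 than was the mean of the other WT libraries in 18 of the 35 subunit genes, against 38.1% of all genes. Set against WT replicate 4 alone, with its spread assumed to be like that of the other libraries, 3 subunit genes were higher (Ndufa6, Ndufb2 and Ndufab1) and 4 lower (Ndufv1, Ndufa7, Ndufb7 and Ndufb8), and the median log2 change was 0.03. In that comparison 17.0% of all genes passed, 8.73% as higher and 8.25% as lower. With WT replicate 4 left out, all 21 calls were made again in the same direction, and Ndufs3 was also called lower, against 50.1% of all genes, 23.5% as higher and 26.6% as lower. Ndufa6 and Ndufv1 were the 2 subunit genes called in the same direction against all WT libraries, with the GC correction and against WT replicate 4 alone. With the GC correction and WT replicate 4 as the sole WT library, Ndufa6 was again past the threshold, whereas Ndufv1 was not (log2 change -0.42).

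A short word recurs at the start of the subunit genes. Promoter windows from RefSeq (GRCm38.p6, from 250 bases before to 50 after the transcription start) were matched for 31 of the 35 subunit genes. The word AAGATGGC, the core of the site of the transcription factor YY1, stood on either strand in 7 of these 31 genes (22.6%), in 5.30% of the genes of the table and in 3.19% of all genes with a window. The 7 matches are printed on the strand of the gene, 30 bases each, with the word in capitals, because they show a feature of the subunit genes that the choice of members did not use.
Ndufc1, chr3:51408915-51408944, minus strand: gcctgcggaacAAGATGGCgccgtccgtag
Ndufa3, chr7:3617384-3617413, plus strand: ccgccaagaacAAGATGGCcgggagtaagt
Ndufs7, chr10:80249462-80249491, plus strand: aggccgaggccAAGATGGCggcgctggcgg
Ndufs6, chr13:73328433-73328462, minus strand: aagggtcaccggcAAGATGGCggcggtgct
Ndufs4, chr13:114388045-114388074, minus strand: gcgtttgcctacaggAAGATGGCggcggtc
Ndufa9, chr6:126849097-126849126, minus strand: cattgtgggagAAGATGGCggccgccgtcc
Ndufb8, chr19:44555393-44555422, minus strand: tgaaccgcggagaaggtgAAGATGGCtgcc
In all 7 genes the word lay on the coding strand, began 23 to 39 bases after the transcription start, and its ATG was the annotated start codon (GENCODE M21), so the same letters are also the start of the reading frame. The genes did not share a direction in C2-/-. Ndufc1 rose, Ndufa9 and Ndufb8 fell, and Ndufa3, Ndufs4, Ndufs6 and Ndufs7 did not pass the threshold.
The other 6 words searched, on both strands, stood in the windows of the subunit genes in shares of 12.9% (CCGGAAG, of ETS factors), 3.23% (the palindromic site of NRF1) and 9.68% (TGACGTCA, the cyclic AMP response element), against 19.9%, 2.35% and 3.58% of the genes of the table. The shares were 48.4% for GGGCGG (SP1), 32.3% for CCAAT and 6.45% for AAGGTCA (oestrogen-related receptors), against 68.7%, 42.5% and 3.89%. The NRF1 site also stood in the windows of Ndufaf4 and Ndufaf5, 2 of the 6 Ndufaf genes with a window. A match describes letters only and shows no binding.

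Among the 7 core subunit genes, 3 fell, Ndufv1 and Ndufs8 among them, 1 rose (Ndufs1) and 3 did not pass the threshold, against 25.0% of all genes lower and 20.2% higher. After the GC correction 2 were lower and 1 higher (8.30% and 12.1% of all genes), and against WT replicate 4 alone 1 was lower and 0 higher (8.25% and 8.73%). Ndufv1 (chr19:4007384-4012806, GRCm38) encodes the subunit that binds the flavin and oxidises NADH. Its level was 9.11, 8.66 and 9.08 log2 CPM in WT replicates 1, 2 and 3, with 7.96 in WT replicate 4, against 6.59, 6.55 and 6.59 in C2-/- replicates 1, 2 and 3. All C2-/- libraries were below all WT libraries, and WT replicate 4 lay between the others. The log2 change was -2.13 (SE 0.26, adjusted p = 0.000414), the largest fall of any subunit gene, with -0.86 after the GC correction (adjusted p = 0.02) and -1.38 against WT replicate 4 alone (adjusted p = 0.00916).

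Ndufs8, an iron-sulphur subunit that hands electrons towards ubiquinone, read 6.90, 6.71 and 7.14 log2 CPM in WT replicates 1, 2 and 3, with 6.59 in WT replicate 4, against 5.86, 5.87 and 6.24 in C2-/-. The groups did not overlap. Its log2 change was -0.84 (SE 0.19, adjusted p = 0.00556), but with the GC correction the sign turned (0.58, adjusted p = 0.0678).

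Ndufs1 encodes the largest subunit, which holds iron-sulphur clusters of the NADH module. Its level was 9.14, 9.0 and 9.25 log2 CPM in WT replicates 1, 2 and 3, with 9.47 in WT replicate 4, against 9.80, 9.90 and 9.84 in C2-/-. The C2-/- libraries were above all WT libraries, with a log2 change of 0.63 (SE 0.16, adjusted p = 0.00999). The call was lost without WT replicate 2 (0.56), with quantile normalization (0.32), after the GC correction (0.09) and against WT replicate 4 alone (0.37). Of the core genes not past the threshold, Ndufs3 changed by -0.57, within the 1.5-fold limit, Ndufv2 by 0.17 and Ndufs7 by 0.25. With the GC correction Ndufs7, an iron-sulphur subunit beside the ubiquinone site and the subunit transcript with the highest GC content (60.7%), was past the threshold as higher (1.99). Ndufv2, an iron-sulphur partner of Ndufv1 and the one with the lowest GC content (42.0%), was past it as lower (-0.73).

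Of the 9 accessory genes of the matrix arm, 2 were higher (Ndufa6 and Ndufa5), 2 lower (Ndufa9 and Ndufa7) and 5 not past the threshold, against 45.2% of all genes past it. Ndufa6 (chr15:82350140-82354322) encodes an LYR-motif protein that anchors an acyl carrier protein to the matrix arm. It read 7.33, 7.09 and 7.24 log2 CPM in WT replicates 1, 2 and 3, with 8.62 in WT replicate 4, against 9.26, 9.41 and 9.70 in C2-/-. WT replicate 4 stood closer to C2-/- than to the other WT libraries, yet the groups did not overlap. Ndufa6 rose by 1.89 on the log2 scale (SE 0.33, adjusted p = 0.00182), by 2.64 after the GC correction (adjusted p = 0.00266) and by 0.84 against WT replicate 4 alone (adjusted p = 0.0303). Its transcript holds 53.6% GC, above the median of the genes that rose.

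Ndufa9 (chr6:126821721-126849136) encodes a nucleotide-binding subunit at the junction of the arms. Levels were 8.37, 8.08 and 8.51 log2 CPM in WT replicates 1, 2 and 3, with 7.57 in WT replicate 4, against 7.0, 6.96 and 6.73 in C2-/-. Every C2-/- library was below every WT library. It changed by -1.24 on the log2 scale (SE 0.22, adjusted p = 0.00208) and, for a transcript with 48.0% GC, -1.41 after the GC correction (adjusted p = 0.00339). Against WT replicate 4 alone it was -0.68 (adjusted p = 0.0586). Ndufa7, a small accessory subunit of this arm, had 6.68, 6.70 and 6.79 in WT replicates 1, 2 and 3, with 6.84 in WT replicate 4, against 6.09, 5.92 and 5.94 in C2-/-. In this gene WT replicate 4 kept to its group. The log2 change of -0.77 (SE 0.15, adjusted p = 0.00297) was -0.85 against WT replicate 4 alone (adjusted p = 0.0178), whereas the GC correction turned it to 0.29 (adjusted p = 0.263).

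Ndufa5 changed by 0.71 (adjusted p = 0.00712), and by 0.89 with the GC correction. Its change fell within the fold limit without C2-/- replicate 3 (0.58) and with quantile normalization (0.49). The other 5 genes of this group lay between -0.37 (Ndufa2) and 0.37 (Ndufs6). Of these, Ndufs6 and Ndufv3, accessory subunits of the NADH module, were past the threshold as higher after the GC correction, at 1.45 and 1.51.

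Accessory genes of the proximal membrane arm, next to the matrix arm, held the largest rise. Of 8 genes, Ndufc1, Ndufc2 and Ndufa1 rose, Ndufa8 fell and 4 did not pass the threshold, where 45.2% of all genes passed. Ndufc1 (chr3:51404677-51408988) encodes a small single-span membrane subunit. It read 6.09, 6.03 and 6.12 log2 CPM in WT replicates 1, 2 and 3, with 9.31 in WT replicate 4, against 9.70, 9.92 and 9.91 in C2-/-. The reads behind these values were 1048, 975 and 1070 in WT replicates 1, 2 and 3, with 2796 in WT replicate 4, against 2418, 2580 and 4642 in C2-/-. WT replicate 4 thus had more reads of Ndufc1 than each of the 3 WT libraries sequenced more deeply. The log2 change was 2.95 (SE 0.68, adjusted p = 0.00665) over all libraries, 3.76 without WT replicate 4 and 0.53 against WT replicate 4 alone (adjusted p = 0.0558). After the GC correction it was 2.29 (adjusted p = 0.0305).

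Ndufc2, which neighbours Ndufc1 in the membrane, read 6.67, 6.50 and 6.81 log2 CPM in WT replicates 1, 2 and 3, with 7.67 in WT replicate 4, against 8.0, 8.39 and 8.68 in C2-/-. Ndufa1, a short membrane subunit needed early in assembly of this region, read 5.87, 5.66 and 5.91 in WT replicates 1, 2 and 3, with 7.14 in WT replicate 4, against 7.78, 7.29 and 7.36 in C2-/-. In both genes WT replicate 4 stood nearer to C2-/-, without reaching it. Ndufc2 changed by 1.45 (SE 0.28, adjusted p = 0.00278) and Ndufa1 by 1.33 (SE 0.32, adjusted p = 0.0083). Both were past the threshold after the GC correction, at 1.39 and 1.09, and neither against WT replicate 4 alone, at 0.69 and 0.34.

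Ndufa8 encodes a twin-cysteine protein on the intermembrane face. It stood at 7.77, 7.66 and 8.07 log2 CPM in WT replicates 1, 2 and 3, with 7.68 in WT replicate 4, against 7.40, 7.22 and 6.95 in C2-/-. The groups were apart by a small margin, and the change of -0.61 (SE 0.17, adjusted p = 0.0167) lay just past the 1.5-fold limit. It was not past it without WT replicate 3 (-0.51) or without C2-/- replicate 3 (-0.48), and turned to 0.29 with the GC correction. The 4 genes not past the threshold were Ndufa3 (0.14), Ndufa11 (-0.38), Ndufa10 (-0.45) and Ndufa13 (-0.46). After the GC correction Ndufa11 and Ndufa13, with 58.2% and 60.4% GC, passed as higher (1.09 and 1.26), whereas with quantile normalization Ndufa10 and Ndufa13 passed as lower (-0.71 and -0.69).

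Of the 10 genes of the distal membrane arm, 5 were higher (Ndufb6, Ndufb3, Ndufb2, Ndufb4 and Ndufb9), 3 lower (Ndufb7, Ndufb11 and Ndufb8) and 2 not past the threshold, against 45.2% of all genes past it. After the GC correction 5 were higher and 1 lower, against 12.1% and 8.30% of all genes. Ndufb7 (chr8:83566671-83571626) encodes a twin-cysteine protein facing the intermembrane space. It read 6.92, 6.84 and 6.93 log2 CPM in WT replicates 1, 2 and 3, with 6.27 in WT replicate 4, against 5.02, 4.62 and 4.93 in C2-/-. All C2-/- libraries were lower than all WT libraries by more than the spread within a group. The log2 change was -1.88 (SE 0.21, adjusted p = 0.000325), the smallest adjusted p of the subunit genes, and -1.41 against WT replicate 4 alone (adjusted p = 0.00916). This transcript has 59.7% GC, and with the GC correction the change was -0.24 (adjusted p = 0.305).

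Ndufb8, a membrane-anchored subunit often used as a marker of assembled complex I, had 9.02, 8.83 and 9.04 log2 CPM in WT replicates 1, 2 and 3, with 9.25 in WT replicate 4, against 7.90, 8.03 and 7.99 in C2-/-. WT replicate 4 was the highest library, and the groups did not overlap. Its log2 change was -1.06 (SE 0.15, adjusted p = 0.000749), and -1.28 against WT replicate 4 alone (adjusted p = 0.0083). After the GC correction it was -0.01, and 13.5% of the 50-base words of its transcript are shared with an overlapping annotated gene, Gm20538, on the same strand. The correction used a transcript with 55.3% GC, whereas the longest annotated transcript of Ndufb8 has 46.9%. Ndufb11, another single-span subunit, fell by 1.41 (adjusted p = 0.00187) and by 0.84 after the GC correction (adjusted p = 0.0162). Its change was -1.21 against WT replicate 4 alone, and -0.81 there with the GC correction as well.

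Ndufb6 encodes a subunit of the distal arm. Its level was 6.64, 6.24 and 6.48 log2 CPM in WT replicates 1, 2 and 3, with 7.63 in WT replicate 4, against 8.01, 8.52 and 8.73 in C2-/-. For Ndufb2, another small distal subunit, it was 6.56, 6.41 and 6.62 in WT replicates 1, 2 and 3, with 7.14 in WT replicate 4, against 8.02, 7.72 and 7.83 in C2-/-. In neither gene did the groups overlap, with WT replicate 4 in between. Ndufb6 changed by 1.67 (SE 0.31, adjusted p = 0.00243), by 1.56 with the GC correction and by 0.79 against WT replicate 4 alone. However, 34.1% of its 50-base words also lie in Smim27, which overlaps it on the opposite strand, and the use of strand in counting was not stated. Ndufb2 changed by 1.17 (SE 0.19, adjusted p = 0.00148). That change was 0.47 with the GC correction (adjusted p = 0.0693) and 0.72 against WT replicate 4 alone (adjusted p = 0.0343).

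Ndufb3, Ndufb4 and Ndufb9 changed by 1.54, 0.86 and 0.60, and all 3 were past the threshold after the GC correction. Ndufb9, the LYR-motif partner of the acyl carrier protein in the membrane arm, had the larger change there, 1.67 for a transcript with 55.4% GC. Its call without the correction was lost without WT replicate 1, WT replicate 2 or C2-/- replicate 3 (0.58, 0.56 and 0.50) and with quantile normalization (0.33). For Ndufb4 the group ranges overlapped, since WT replicate 4 (8.0) lay above C2-/- replicate 2 (7.87). The call of Ndufb4 was lost without WT replicate 1, 2 or 3 or without C2-/- replicate 1 or 3, with changes of 0.69 to 0.90, and 37.0% of its 50-base words occur in other annotated genes, among them the copy Ndufb4c. Ndufb5 (0.19) and Ndufb10 (-0.01) did not pass. Ndufb10 was past the threshold as higher after the GC correction (1.07).

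Ndufab1 encodes the mitochondrial acyl carrier protein, which is bound in both arms and also serves mitochondrial fatty acid synthesis and iron-sulphur cluster assembly. Its level was 7.43, 7.26 and 7.45 log2 CPM in WT replicates 1, 2 and 3, with 7.23 in WT replicate 4, against 7.82, 8.52 and 8.59 in C2-/-. WT replicate 4 was the lowest library of all, and the groups did not overlap. Ndufab1 changed by 0.97 on the log2 scale (SE 0.20, adjusted p = 0.00382), 1.08 against WT replicate 4 alone (adjusted p = 0.0391) and 0.45 after the GC correction (adjusted p = 0.129). The LYR-motif partners of the protein, Ndufa6 and Ndufb9, were both higher as described above.

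**Figure D3:**
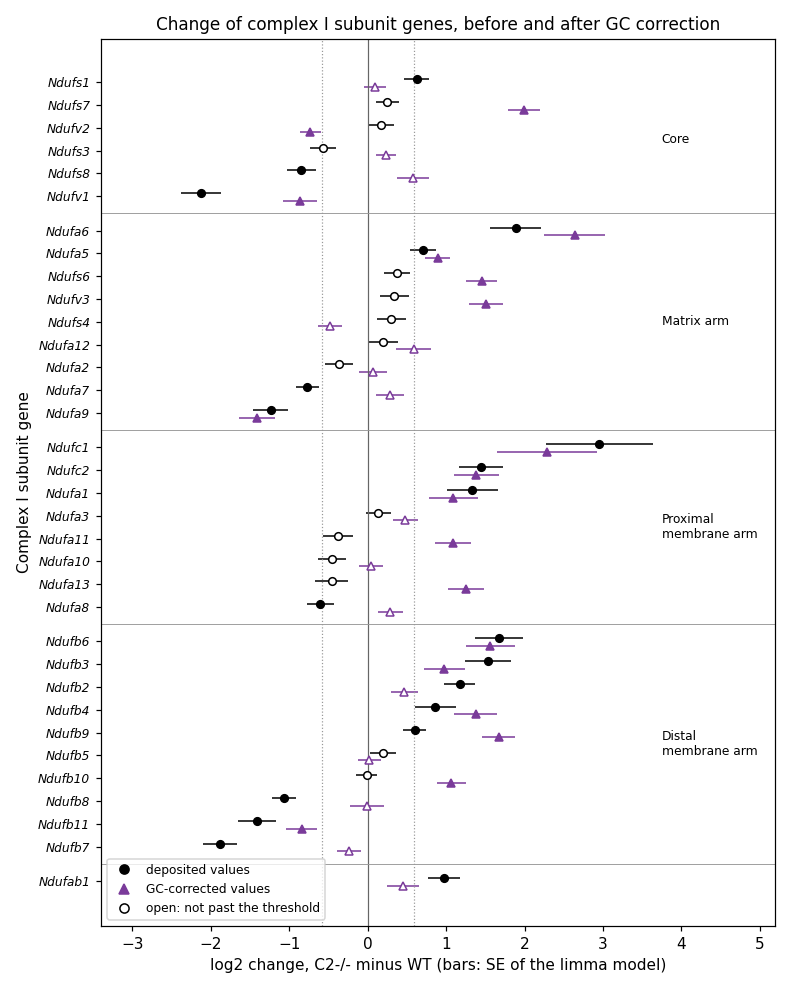
Log2 change (C2-/- minus WT, horizontal axis) of 34 of the 35 subunit genes from the deposited values (black circles) and after the GC correction (purple triangles), with the SE of limma's model as bars, filled where the gene passed the threshold. Dotted lines mark 1.5-fold. The changes of Ndufa6, Ndufc1, Ndufc2, Ndufb6, Ndufa9 and Ndufv1 stay on one side in both, whereas Ndufs8, Ndufa13 and Ndufb10 move across or away from 0.

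In 12 of the 35 subunit genes over 10% of the 50-base words also occur in other annotated genes, so that their counts are less certain. Beside Ndufb4, Ndufb6 and Ndufb8 these were Ndufs3 (39.7%), Ndufa13 (28.5%), Ndufa12 (26.2%), Ndufb9 (23.4%, with Gm49356), Ndufb11 (17.5%, with Rbm10 and Gm6444), Ndufb5 (16.2%), Ndufs6 (14.6%), Ndufa11 (12.5%) and Ndufab1 (12.3%, with Ndufab1-ps among others).

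Per length of transcript, levels were compared between the 28 subunit genes whose transcripts in the consensus coding set (CCDS) differ by less than 1.5 times in length. Transcripts outside that set can differ more, as for Ndufa11, with 545 bases in the transcript used and 918 in the longest. Ndufa12 was divided by 1110 bases, and its CCDS transcript has 566. In WT Ndufb9 was among the highest, at 575 ± 38.6 CPM per kb (SD, n = 4). Ndufs7 and Ndufb10 stood at 365 ± 37.0 and 361 ± 24.9, which differ by less than their spread. The low end was held by Ndufs4 (104 ± 16.1), Ndufa2 (115 ± 12.5), Ndufb3 (116 ± 55.9) and Ndufs8 (117 ± 19.9), which lay within their spread. In WT replicates 1 to 3 alone, Ndufb3 (88.7) was below Ndufs4 (96.5). In C2-/- Ndufa6 was the highest, at 1201 ± 192 CPM per kb (SD, n = 3), and Ndufb7 the lowest, at 46.6 ± 6.71. The 7 Ndufaf genes were all below every one of these subunit genes in WT, from 6.86 ± 0.955 for Ndufaf3 to 42.6 ± 26.8 CPM per kb for Ndufaf5.

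The Ndufaf genes had 4 to 938 reads per library. Ndufaf2 (chr13:108002715-108158623) encodes a factor of the late addition of the NADH module and is a paralogue of Ndufa12. It read 2.97, 2.99 and 2.70 log2 CPM in WT replicates 1, 2 and 3, with 2.89 in WT replicate 4, against 4.52, 4.55 and 4.00 in C2-/-. Ndufaf6, a factor of early assembly, read 4.16, 4.18 and 4.24 in WT replicates 1, 2 and 3, with 4.195 in WT replicate 4. Its levels in C2-/- were 5.58, 4.98 and 5.40. In both genes WT replicate 4 lay with the other WT libraries and every C2-/- library was above them. Ndufaf2 changed by 1.47 (SE 0.28, adjusted p = 0.0028) and Ndufaf6 by 1.13 (SE 0.22, adjusted p = 0.00286). Both were past the threshold with the GC correction (1.23 and 1.26) and against WT replicate 4 alone (1.47 and 1.13), and no other Ndufaf gene was past it in all 3. When both were combined, Ndufaf6 passed as higher (1.19, adjusted p = 0.0449) and Ndufaf5 as lower (-1.18, adjusted p = 0.0462), while Ndufaf2, at 1.26, did not (adjusted p = 0.0984).

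Ndufaf4 works with Ndufaf3 on the module that binds ubiquinone. Ndufaf4 read 5.93, 5.96 and 5.93 log2 CPM in WT replicates 1, 2 and 3, with 6.44 in WT replicate 4, against 6.84, 7.58 and 7.22 in C2-/-. No C2-/- library overlapped WT, and the log2 change was 1.15 (SE 0.21, adjusted p = 0.00244). Its transcript had the lowest GC content of the 42 subunit and Ndufaf genes (39.5%), and after the GC correction the change was -0.01 (adjusted p = 0.962). Ndufaf3 had 148 to 181 reads in WT replicates 1, 2 and 3, with 37 in WT replicate 4, against 28, 4 and 28 in C2-/-. Its levels were 3.56, 3.31, 3.42 and 3.09 in WT replicates 1 to 4 and 3.29, 0.75 and 2.56 in C2-/-. The groups overlapped, and the log2 change was -1.15 (SE 0.54, adjusted p = 0.107). Without C2-/- replicate 1 it was past the threshold as lower (-1.69, adjusted p = 0.0298).

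Ndufaf1, a member of the assembly complex of the membrane arm, changed by 0.72 (adjusted p = 0.0403). Its call was lost on leaving out WT replicate 1 or 2 or any C2-/- replicate (0.56 to 0.79) and with quantile normalization (0.65). Ndufaf5, which modifies Ndufs7, changed by 0.18, and against WT replicate 4 alone it was called lower (-0.94, adjusted p = 0.0438). Ndufaf7, a mitochondrial arginine methyltransferase, changed by -0.42 and was not past the threshold.

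**Figure D4:**
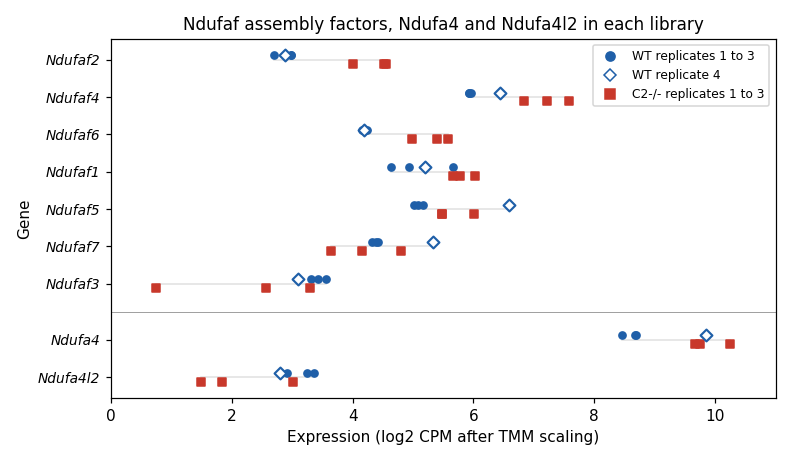
Expression in log2 CPM of the 7 Ndufaf genes, Ndufa4 and Ndufa4l2 in each library, with symbols for WT replicates 1 to 3 (circles), WT replicate 4 (open diamonds) and C2-/- (squares). For Ndufaf2 and Ndufaf6 the diamond lies among the circles, and for Ndufa4 it lies among the squares at 9.84.

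Of 13 other assembly factors in the table, without an Ndufaf symbol, 5 were lower in C2-/-, 2 higher and 6 not past the threshold, against 25.0% of all genes lower and 20.2% higher. Foxred1, a factor of late assembly, changed by -1.55 (SE 0.26, adjusted p = 0.00159), by -1.28 with the GC correction and by -1.28 against WT replicate 4 alone, and was past the threshold each time. The other 4 that fell were Tmem186 (-0.91), Ecsit (-0.75), Acad9 (-0.69) and Dmac2, listed as Atp5sl (-0.66). Ecsit, Acad9 and Tmem186 belong with Ndufaf1 to the assembly complex of the membrane arm. Their direction was opposite to that of Ndufaf1, but with the GC correction Ecsit turned to 0.33, the sign of Ndufaf1 (0.30), and neither passed the threshold there. Acad9 (-0.84, adjusted p = 0.0182) and Tmem186 (-0.99, adjusted p = 0.0456) were lower and past the threshold with the correction too. Nubpl, which delivers iron-sulphur clusters, changed by 1.12, and Tmem70, a factor of ATP synthase and complex I assembly, by 0.73. The number of calls fell from 7 to between 1 and 4 on leaving out WT replicate 1, 2 or 3 or C2-/- replicate 2 or 3, and to 3 with the GC correction. Calls over all genes went from 45.2% to 33.9%, 33.5% and 33.5% without WT replicate 1, 2 and 3, to 42.7% and 42.2% without C2-/- replicate 2 and 3, and to 20.4% with the GC correction. Ndufaf8, listed under an older symbol, changed by -1.61 (adjusted p = 0.0504).

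Of the 2 genes with an Nduf symbol outside the complex, Ndufa4 was higher and Ndufa4l2 did not pass the threshold. Ndufa4, now assigned to cytochrome c oxidase, read 8.69, 8.46 and 8.68 log2 CPM in WT replicates 1, 2 and 3, with 9.84 in WT replicate 4, against 9.67, 9.75 and 10.25 in C2-/-. WT replicate 4 lay inside the range of C2-/-. The log2 change was 0.97 (SE 0.31, adjusted p = 0.0271) over all libraries and 0.05 against WT replicate 4 alone. It was 0.31 after the GC correction, and the call was lost without WT replicate 1, 2 or 3 or without C2-/- replicate 2 or 3 (0.79 to 1.05) and with quantile normalization (0.70). Ndufa4l2, a paralogue induced by hypoxia in other tissues, read 2.91, 3.24, 3.36 and 2.79 in WT replicates 1 to 4 and 3.02, 1.83 and 1.48 in C2-/-. These ranges overlapped, with a log2 change of -0.97 (SE 0.44, adjusted p = 0.0913) and, after the GC correction, 0.64 (adjusted p = 0.25).

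Of 43 nuclear genes of complexes II to V, 9 (20.9%) were higher and 12 (27.9%) lower, against 20.2% and 25.0% of all genes, with a median log2 change of -0.33. Median centring gave 14 higher and 11 lower (24.8% and 21.2% of all genes), and quantile normalization 8 higher and 17 lower (23.6% and 22.6%). Of 77 genes of mitochondrial ribosomal proteins, 24 were higher and 18 lower, with a median of 0.02. After the GC correction the calls were 15 higher and 4 lower of 35 for complex I subunits (median 0.48), 11 and 7 of 43 for complexes II to V (median 0.11) and 19 and 6 of 77 for mitochondrial ribosomal proteins (median 0.26), against 12.1% higher, 8.30% lower and a median of 0.01 for all genes. The differences between these lists were not tested.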

How the data were processed

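Poly(A)-selected RNA from TA muscle was sequenced as DNA nanoballs (4 WT and 3 C2-/- libraries). The authors aligned the reads with HISAT to GRCm38.p6, counted them per gene with featureCounts 1.5.2, applied TMM scaling in edgeR and deposited log2 CPM values with 0.5 reads added. The setting for strand and the treatment of multiply mapped reads were not given in the sources used here. A further deposited table, which holds the authors' own comparison (log2 fold changes, p-values and related statistics), was not used. The study gives its numbers per group as mice. The series text names 4 per group, and 3 C2-/- libraries were analysed here. Replicates differed by more than sampling noise (chi-square per degree of freedom of at least 9.12).

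The log2 values were tested with limma 3.58.1 in R 4.3.3 (eBayes with a mean-variance trend, genotype as the only term, two-sided, all 7 libraries), with Benjamini-Hochberg adjustment and the thresholds in the methods of the study. A figure legend of the study instead gives 0.5 for the log-transformed fold change. Read as log2, that limit would also be passed by Ndufs3 (-0.57, adjusted p = 0.0202 by limma). The script was tested on simulated data. Whole reads could be recovered from 100.0% of the values of every library, to within 1.85e-08 reads, and voom on them served as an alternative. A floor of 3 reads corresponds to 0.195 to 1.12 CPM and covers counting error only.

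GC content and length were taken from 1 GENCODE M21 transcript per gene, which was found for 12176 genes (99.5%, with 358 matched by a former symbol) and for all 44 members. For the GC correction a natural spline on GC content with 5 degrees of freedom was removed from each library. GC content can differ between the transcripts of a gene, as for Ndufs6 (55.5% in the transcript used and 49.1% in the longest). The correction was not run with other transcripts. Full values are given, within each list (core, 3 accessory arms, Ndufab1, Ndufaf), for the genes with the largest rise, the largest fall and the 3 smallest adjusted p-values, and for Ndufa4 and Ndufa4l2. Further genes were picked with their values in view. The members, lists and tests were chosen with earlier results of these data known. Replicate numbers were not used as a block, since same-numbered libraries did not deviate together (r of -0.13, -0.05 and -0.08). A subunit gene not reported here enters the counts, medians and sums but is neither described nor drawn.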

Additional observations from a re-analysis of the deposited data

Results flagged for a closer look

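Among the 4 WT libraries, the gap of the most extreme library to its nearest neighbour was set against Dixon's 95% critical value for 45 genes (the 44 Nduf genes and Mybpc2). It was exceeded in 9 genes, where chance gives about 1 in 20, and the library was WT replicate 4 each time. The share over all genes was not computed. The median absolute distance of WT replicate 4 from the mean of WT replicates 1 to 3 was 0.34 in the Nduf genes and 0.54 in all genes. The departure of this library was therefore not particular to the Nduf genes. Values are in log2 CPM.

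In 6 of the 9 genes WT replicate 4 was above the other WT libraries and nearer to the C2-/- mean than to theirs. Ndufc1, the small membrane subunit, read 9.31 in WT replicate 4, 6.03 to 6.12 in WT replicates 1 to 3 and 9.70 to 9.92 in C2-/-. Ndufa6, the LYR-motif subunit, read 8.62, between the other WT libraries (7.09 to 7.33) and C2-/- (9.26 to 9.70). Ndufa1 read 7.14, with 5.66 to 5.91 in the other WT libraries and 7.29 to 7.78 in C2-/-. For Ndufa4 WT replicate 4 was at 9.84, the other WT libraries at 8.46 to 8.69 and C2-/- at 9.67 to 10.25. For Ndufb4 these values were 8.0, 7.01 to 7.09 and 7.87 to 8.50. Ndufaf5 differed from these, since its 6.59 in WT replicate 4 was above both the other WT libraries (5.02 to 5.17) and C2-/- (5.47 to 6.01).

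Of the other 3 genes, Ndufaf4 read 6.44 in WT replicate 4, above the other WT libraries (5.93 to 5.96) and below C2-/- (6.84 to 7.58). Ndufaf7 stood at 5.33, above both the other WT libraries (4.33 to 4.42) and C2-/- (3.65 to 4.80). Ndufb7 was the one gene in which WT replicate 4 was low, at 6.27, below the other WT libraries (6.84 to 6.93) and above C2-/- (4.62 to 5.02). The part of WT replicate 4 in the results is given by the values without it and against it alone.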

How the results depend on the processing

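The direction of every subunit call was kept with voom on the recovered reads, with 2 reads added, with library quality weights and with genes of mean log2 CPM of at least 3, and no subunit call was lost or gained there. The GC and length correction, and the GC correction with WT replicate 4 as the sole WT library, were chosen after seeing the data. The cause of the changes below was not tested. The fold changes are on the scale with 0.5 reads added, and genes with few reads, such as Ndufaf3, are limited by depth.

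With the GC correction, 4 subunit genes were lower, 2 Ndufaf genes, 3 other assembly factors and 2488 genes in all were past the threshold, and the medians were 0.48 (subunits) and 0.026 (Ndufaf). Genes past the threshold before or after the correction whose sign turned were Ndufa11 (1.09), Ndufa13 (1.26), Ndufa7 (0.29), Ndufa8 (0.29), Ndufaf4 (-0.014), Ndufb10 (1.07), Ndufs8 (0.58), Ndufv2 (-0.73), Ecsit (0.33) and Atp5sl (0.092). With GC and length corrected, the numbers were 4, 1, 2 and 2490, the medians 0.40 and 0.055, and the turned genes Ndufa13 (1.12), Ndufa4 (-0.048), Ndufa8 (0.035), Ndufb10 (0.78), Ndufs8 (0.36), Ndufv2 (-0.82), Ecsit (0.26) and Atp5sl (0.15). There 12 subunit genes were higher, against 12.2% of all genes. Ndufa1 (0.67), Ndufa11 (0.75) and Ndufb3 (0.67) lost the call they had with the GC correction.

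Against WT replicate 4 alone, 7 subunit genes (3 higher, 4 lower), 1 other assembly factor and 2078 genes in all were past the threshold, the subunit median was 0.027 and Ndufaf5 was at -0.94. With the GC correction as well, 6 subunit genes (5 higher, 1 lower), 2 Ndufaf genes, 0 other assembly factors and 616 genes in all were past it, the Ndufaf median was -0.0037, and the turned genes were Ndufa4 (-0.44), Ndufa8 (0.18), Ndufaf4 (-0.11), Ndufaf5 (-1.18), Ndufs1 (-0.032), Ndufs8 (0.48), Ndufv2 (-0.79), Ecsit (0.29), Tmem70 (-0.15) and Atp5sl (0.092).

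Median centring raised the median of all genes from -0.14 to 0.02 and gave medians of 0.35 (subunits) and 0.88 (Ndufaf). It called 4 other assembly factors, against 46.0% of all genes. Quantile normalization gave 9 subunit genes higher, 12 lower and a median of -0.030, against 23.6% of all genes higher and 22.6% lower. Without the trend 3 other assembly factors were called, against 42.7% of all genes. At an adjusted p under 0.01 there were 1 such factor and 3216 genes in all, and over genes of mean log2 CPM of at least 3 the Ndufaf median was 0.92.

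Leaving out 1 library at a time gave 9 to 12 subunit genes higher and 8 to 11 lower, subunit medians of 0.14 to 0.25, Ndufaf medians of 0.56 to 0.90 and 1 to 9 other assembly factors. The calls over all genes moved as well, with 4149 of 12239 genes past the threshold without WT replicate 1 and 6136 without WT replicate 4. With the replicate block, in which WT replicate 4 has no partner, 12 subunit genes were higher and 10 lower, with a median of 0.24 and 8 other assembly factors. Of all genes, 21.7% were higher and 26.5% lower there. The replicate numbers share only a number (r as given above). With the GC correction and the replicate block, 4 subunit genes were lower, 2 Ndufaf genes, 3 other assembly factors and 2930 genes in all were past the threshold, the medians were 0.56 and 0.26, and the turned genes were Ndufa11 (1.09), Ndufa13 (1.39), Ndufa7 (0.40), Ndufa8 (0.33), Ndufb10 (1.20), Ndufb8 (0.15), Ndufs8 (0.61), Ndufv2 (-0.71), Ecsit (0.34) and Atp5sl (0.092).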
